A study of Mus musculus with 32 samples.

Results

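The genes described here are 48 mouse imprinted genes other than the growth regulators at the Igf2 and Cdkn1c loci, taken from a list of names. Of these, 42 have a probe set annotated to that symbol alone on the arrays of the RNA interference (RNAi) experiment, out of 18193 genes there, and 36 could be tested on the 2-colour arrays of the chemical differentiation experiment, out of 12034 genes. The genes Zrsr1, Rtl1, Dio3, Slc22a3, Peg13 and Kcnk9 were not measured by a probe of their own, and Commd1, Osbpl5, Magel2, Airn, Sfmbt2 and Inpp5f were tested on the RNAi arrays only. By textbook assignment 24 of the 48 are expressed mainly from the paternal allele, 21 from the maternal allele, and 3 (Gnas, H13 and Inpp5f) from an allele that depends on the transcript.

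An imprinted gene is transcribed mainly from the copy inherited from 1 parent. The choice is set by DNA methylation laid down in the germ line, which the zinc finger protein ZFP57 and its partners hold on the imprinted copy after fertilisation, and neighbouring genes share such control regions in clusters. Many imprinted genes act in placental growth, fetal growth and behaviour, and many are low in the inner cell mass and rise as lineages form. Most maternally expressed genes in this set are imprinted in only some tissues, chiefly placenta or brain. The arrays measured total RNA, so the contribution of each parental copy cannot be told from these data.

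All cells were E14TG2a mouse embryonic stem (ES) cells, an established line. In the RNAi experiment the cells carried a pSUPER-puro plasmid against Pou5f1 (4 arrays), a plasmid against Nanog (5 arrays) or the empty parental vector (5 arrays), and all 3 groups were selected with 1 µg/ml puromycin for 3 days, beginning 24 h after transfection. In the differentiation experiment the cells received 0.1 µM retinoic acid (RA), 1% dimethyl sulfoxide (DMSO) or 3 mM hexamethylene bisacetamide (HMBA) and were sampled on days 2, 4 and 6, each against untreated E14 cells on the same array. Each treatment and day has 2 arrays of opposite dye orientation, so 6 per treatment. The RNAi values are RMA levels, on a log2 scale by their range; RMA is a method that summarises the probes of a set. The differentiation values are log ratios of treated to untreated cells whose base no label names; base 2 was assumed. A difference is called, and described as a rise or a fall, where limma's adjusted p across all probes was under 0.05.

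The knockdown held in each labelled group. The Pou5f1 level was 9.03 ± 0.22 in Pou5f1 RNAi cells (SD, n = 4) and 11.42 ± 0.089 in vector cells (SD, n = 5). The Nanog level was 9.29 ± 0.15 in Nanog RNAi cells and 11.09 ± 0.079 in vector cells (SD, n = 5 each). Pou5f1 itself differed by -0.10 between Nanog RNAi and vector cells (adjusted p = 0.61), while Nanog fell by 1.40 after Pou5f1 RNAi. All 12 trophectoderm markers rose after Pou5f1 RNAi, their mean level lying between 8.71 and 8.92 in Pou5f1 RNAi arrays and between 5.41 and 5.50 in vector arrays. After Nanog RNAi 10 of the 12 rose, with array means of 6.27 to 6.68. All 12 pluripotency markers fell after Pou5f1 RNAi and 9 after Nanog RNAi. Of 12 primitive endoderm markers 4 rose and 6 fell with Pou5f1 RNAi, and 6 rose with Nanog RNAi. Of 10 neural markers 2 rose and 5 fell with Pou5f1 RNAi and 1 rose and 6 fell with Nanog RNAi, and of 11 mesenchyme and fibroblast markers 3 rose and 1 fell with Pou5f1 RNAi and 2 rose and 1 fell with Nanog RNAi. Over all genes 20.6% rose and 19.5% fell with Pou5f1 RNAi, and 12.1% and 8.77% with Nanog RNAi. The mesenchyme and fibroblast markers had median differences of only 0.08 and 0.02 in that order. Changes of imprinted genes ran beside these changes in cell type markers, whose part in them was not tested. In such bulk samples, fewer cells of a type and less RNA per cell cannot be told apart.

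The stretches around the transcription start are shown for 5 genes whose results recur in the text. Peg3, Mest and Plagl1 are paternally expressed genes that rose, and Meg3 and Rian are maternally expressed noncoding RNAs of 1 cluster that changed together after Pou5f1 RNAi. Each is 300 bases from RefSeq (GRCm38.p6), 250 before the annotated start to 50 after it, written 5′ to 3′ on the gene's strand, with every CpG, the dinucleotide that carries DNA methylation, in capitals.
Peg3, chr7:6730370-6730669, minus strand: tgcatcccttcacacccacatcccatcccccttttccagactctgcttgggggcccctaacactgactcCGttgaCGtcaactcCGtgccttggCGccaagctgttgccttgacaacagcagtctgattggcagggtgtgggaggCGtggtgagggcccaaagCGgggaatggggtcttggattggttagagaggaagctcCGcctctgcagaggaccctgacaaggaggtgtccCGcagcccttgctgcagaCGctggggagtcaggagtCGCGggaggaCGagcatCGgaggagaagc
Mest, chr6:30737800-30738099, plus strand: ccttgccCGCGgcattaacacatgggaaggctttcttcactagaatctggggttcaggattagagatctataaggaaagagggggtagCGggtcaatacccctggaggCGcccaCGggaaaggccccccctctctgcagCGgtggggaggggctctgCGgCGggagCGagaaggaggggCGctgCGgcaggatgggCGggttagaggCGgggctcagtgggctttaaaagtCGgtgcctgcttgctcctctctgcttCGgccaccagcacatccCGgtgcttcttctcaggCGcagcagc
Plagl1, chr10:13090582-13090881, plus strand: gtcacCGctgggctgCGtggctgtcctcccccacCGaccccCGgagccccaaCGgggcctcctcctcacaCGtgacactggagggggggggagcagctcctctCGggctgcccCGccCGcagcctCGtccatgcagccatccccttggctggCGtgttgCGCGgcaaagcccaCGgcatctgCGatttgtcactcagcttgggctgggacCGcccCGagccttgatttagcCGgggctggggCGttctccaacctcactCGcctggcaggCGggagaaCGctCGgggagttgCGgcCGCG
Meg3, chr12:109540746-109541045, plus strand: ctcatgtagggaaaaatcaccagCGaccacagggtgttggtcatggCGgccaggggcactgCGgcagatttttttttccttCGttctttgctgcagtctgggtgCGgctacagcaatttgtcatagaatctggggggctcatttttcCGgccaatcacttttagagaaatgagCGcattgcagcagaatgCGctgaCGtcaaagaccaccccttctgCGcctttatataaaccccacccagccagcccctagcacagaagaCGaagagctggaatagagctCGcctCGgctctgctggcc
Rian, chr12:109603695-109603994, plus strand: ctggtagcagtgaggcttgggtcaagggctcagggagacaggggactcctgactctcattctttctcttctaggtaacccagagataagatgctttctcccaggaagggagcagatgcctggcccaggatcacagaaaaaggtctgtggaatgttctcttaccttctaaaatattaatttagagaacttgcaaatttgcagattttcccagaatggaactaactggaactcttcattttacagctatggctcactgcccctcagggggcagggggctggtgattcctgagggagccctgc

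The windows differ in their CpG content. Plagl1 has 26 CpG sites, Mest 17, Peg3 13 and Meg3 13, whereas Rian has 0. Where RefSeq held several windows for a gene, the window with most CpG sites is shown. Other windows of Mest have 8 and 17 CpG sites, and the other Meg3 window has 1. The difference between Meg3 and Rian thus depends on that choice. The table held a window for 38 of the 48 genes. The ratio of CpG sites observed to those predicted from base composition had a median of 0.603 over the 18 paternal genes with a window, 0.652 over the 17 maternal ones and 0.390 over all 27025 genes of the table. The letters TGCCGC, which ZFP57 is known to bind, were searched on both strands. They occur in a window of 6 of the 18 paternal genes (Zdbf2, Mcts2, Nnat, Mest, Snrpn and Plagl1), of 6 of the 17 maternal genes (Copg2, Zim1, Osbpl5, Commd1, Meg3 and Slc22a2), and of 13.1% of all genes. Some genes have several windows in the table. A match here is a description of letters only. The Peg3 and Usp29 windows lie head to head and share 263 bases.

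Knockdown of Pou5f1 changed 24 of the 42 imprinted genes measured: 15 rose and 9 fell, against 20.6% of all genes rising and 19.5% falling. Of the 20 paternal genes 9 rose and 3 fell, and of the 19 maternal genes 4 rose and 6 fell. The median difference was 0.13 for paternal genes, -0.03 for maternal genes and -0.04 for all genes. The spread around these medians was wide, since 11 of the 24 called genes differed by at least 1 on the log2 scale. Knockdown of Nanog changed 15 of the 42: 11 rose and 4 fell, against 12.1% and 8.77% of all genes. Among these, 9 of the 20 paternal genes rose and 2 fell, while 1 of the 19 maternal genes rose and 2 fell. The median difference with Nanog RNAi was 0.21 for paternal genes, 0.01 for maternal genes and -0.02 for all genes. The knockdowns share their 5 vector arrays. The genes H13, Ndn, Peg10, Peg3, Plagl1, Sfmbt2 and Sgce rose with both, and Commd1, Mcts2 and Zdbf2 fell with both. The share of all genes that rose or fell with both is not given here.

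**Figure D1:**
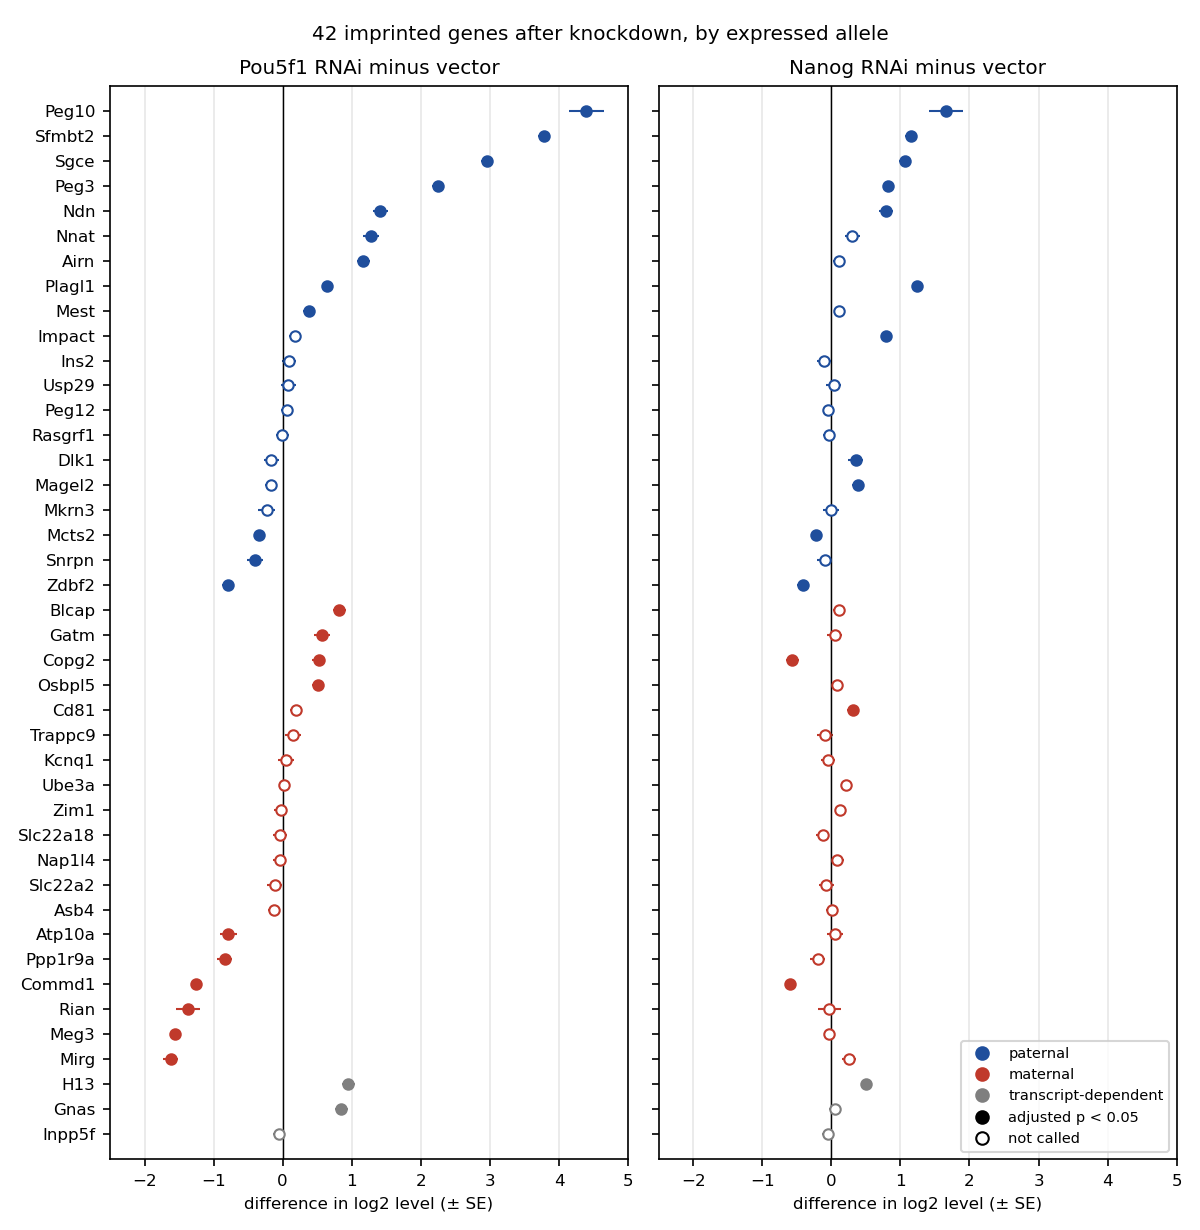
Differences in log2 level from vector cells (± SE) for the 42 imprinted genes on the RNAi arrays, with Pou5f1 RNAi on the left and Nanog RNAi on the right. Filled points were called at adjusted p under 0.05 and open points were not. Peg10 stands highest in both panels (4.40 and 1.66), and Meg3, Rian and Mirg lie below -1.3 with Pou5f1 RNAi and between -0.03 and 0.26 with Nanog RNAi.

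Peg10 rose most in both knockdowns, and Sgce, its paternally expressed neighbour from a shared start region, rose with it. Peg10 is a retrotransposon-derived gene needed for the placenta, and Sgce encodes epsilon-sarcoglycan, a membrane protein of the dystrophin-associated complex. Peg10 had levels of 8.75, 8.81, 9.04 and 9.09 in Pou5f1 RNAi cells, 5.57, 5.94, 5.54, 6.38 and 7.48 in Nanog RNAi cells and 4.33, 4.58, 4.65, 4.50 and 4.55 in vector cells. The 3 groups did not overlap, and the Nanog RNAi arrays were the most spread. Peg10 rose by 4.40 ± 0.26 with Pou5f1 RNAi (SE, adjusted p = 1.8e-11) and by 1.66 ± 0.24 with Nanog RNAi (adjusted p = 4.5e-05), and over the fits that leave out 1 array the second value ran as low as 1.34. Sgce had levels of 8.94, 9.12, 9.25 and 8.94 in Pou5f1 RNAi cells, 7.12, 7.10, 7.07, 7.26 and 7.27 in Nanog RNAi cells and 5.96, 6.07, 6.003, 6.301 and 6.18 in vector cells. Sgce was thus ordered in the same way as Peg10 without overlap, rising by 2.96 ± 0.089 (adjusted p = 5.8e-16) and 1.06 ± 0.084 (adjusted p = 1.3e-08). Averaged over both Sgce probe sets the rises were 1.63 and 0.55. Ppp1r9a, a maternally expressed neighbour that encodes the actin-binding protein neurabin, fell by 0.84 ± 0.11 with Pou5f1 RNAi, or by 0.41 averaged over its 5 probe sets, and differed by -0.20 with Nanog RNAi (adjusted p = 0.27). Asb4, an ankyrin repeat protein of this cluster, was called in neither knockdown.

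Sfmbt2, a polycomb-group gene required in trophoblast and imprinted there, rose almost as much as Peg10. Its levels were 12.00, 11.92, 12.20 and 11.92 in Pou5f1 RNAi cells, 9.42, 9.43, 9.47, 9.27 and 9.29 in Nanog RNAi cells and 8.05, 8.25, 8.33, 8.26 and 8.25 in vector cells. The groups were separate, with differences of 3.78 ± 0.082 (adjusted p = 4.7e-18) and 1.15 ± 0.077 (adjusted p = 1.1e-09) from vector cells. Sfmbt2 rose by 2.63 ± 0.082 in Pou5f1 RNAi over Nanog RNAi cells. Airn, the noncoding RNA that silences Igf2r in cis, had levels of 5.22, 5.14, 5.62 and 5.21 in Pou5f1 RNAi cells, 4.10, 4.41, 4.17, 4.26 and 4.27 in Nanog RNAi cells and 4.17, 4.10, 4.08, 4.05 and 4.25 in vector cells. The Pou5f1 RNAi arrays stood above all others, while the Nanog RNAi arrays overlapped the vector arrays. Airn rose by 1.17 ± 0.094 with Pou5f1 RNAi (adjusted p = 2.7e-09) and by 0.64 when its 5 probe sets were averaged, of which 2 were called. Its neighbour Slc22a2, an organic cation transporter, was not called. The Airn probe set lies below the median of all probe sets, as do those of 11 other genes here (Zim1, Usp29, Asb4, Rasgrf1, Mkrn3, Peg12, Atp10a, Slc22a2, Osbpl5, Kcnq1 and Gatm); 4 of these 12 (Airn, Atp10a, Osbpl5 and Gatm) were called with Pou5f1 RNAi.

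Peg3, a zinc finger gene that acts in fetal growth and maternal behaviour, rose with both knockdowns. It had levels of 10.65, 10.58, 11.01 and 10.72 in Pou5f1 RNAi cells, 9.31, 9.31, 9.24, 9.27 and 9.43 in Nanog RNAi cells and 8.39, 8.51, 8.60, 8.37 and 8.56 in vector cells. No arrays of different groups overlapped. The rises were 2.25 ± 0.088 (adjusted p = 3e-14) and 0.82 ± 0.083 (adjusted p = 3.8e-07), or 1.40 and 0.45 averaged over the 5 Peg3 probe sets, of which 3 rose in each knockdown. Usp29, a ubiquitin peptidase gene that starts in the 263 bases shared with Peg3 and runs the other way, had levels between 3.69 and 3.83 in Pou5f1 RNAi cells, between 3.51 and 3.98 in Nanog RNAi cells and between 3.29 and 4.00 in vector cells. The 3 ranges overlapped. Usp29 was called in neither knockdown, nor was Zim1, the maternally expressed zinc finger gene of the same cluster, and both read below the median of all probe sets.

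**Figure D2:**
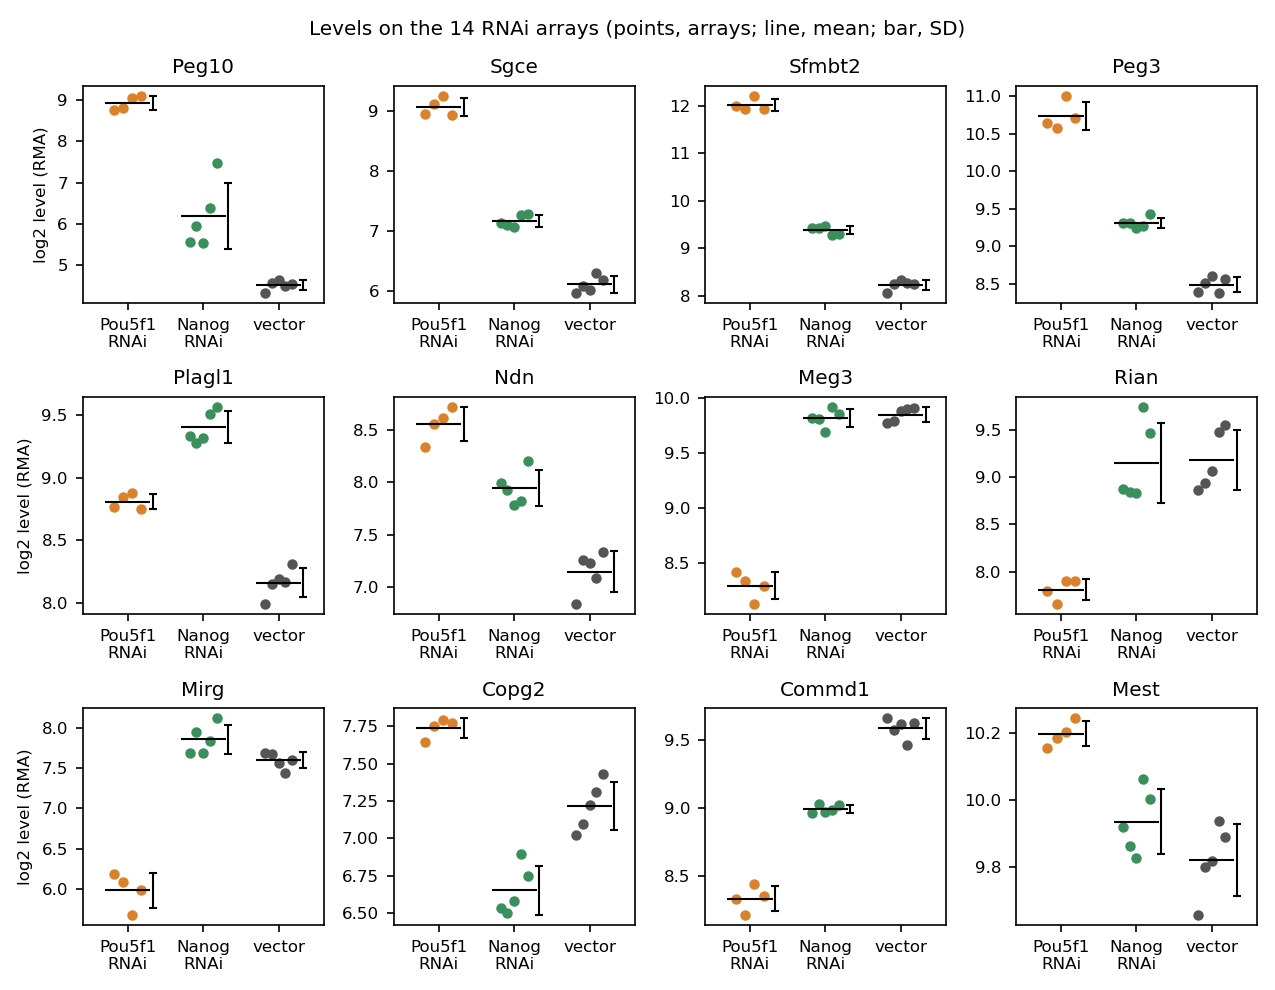
Log2 levels of 12 imprinted genes on every RNAi array, with Pou5f1 RNAi, Nanog RNAi and vector cells from left to right, each gene on its own axis. Points are arrays, lines are means and bars are SDs. Plagl1 is highest in Nanog RNAi cells, and Copg2 lies above the vector arrays with Pou5f1 RNAi and below them with Nanog RNAi.

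Plagl1 encodes a zinc finger transcription factor that controls other imprinted genes. It was the only paternal gene called in both knockdowns whose rise was larger with Nanog RNAi than with Pou5f1 RNAi. Its levels were 8.76, 8.84, 8.88 and 8.75 in Pou5f1 RNAi cells, 9.33, 9.28, 9.32, 9.51 and 9.56 in Nanog RNAi cells and 7.99, 8.15, 8.19, 8.17 and 8.31 in vector cells. All 3 groups were separate, with rises of 0.65 ± 0.082 (adjusted p = 1.9e-06) and 1.24 ± 0.078 (adjusted p = 3.8e-10), and Pou5f1 RNAi cells lay 0.59 ± 0.082 below Nanog RNAi cells (adjusted p = 6.9e-06). Of the 3 Plagl1 probe sets 1 was called, and their mean gave 0.25 and 0.54. Impact, a regulator of translation, rose by 0.80 ± 0.073 with Nanog RNAi (adjusted p = 1.1e-07; 0.42 averaged over its 3 probe sets) and differed by 0.17 with Pou5f1 RNAi (adjusted p = 0.1). A direct comparison of the knockdowns put Impact 0.62 lower in Pou5f1 RNAi cells than in Nanog RNAi cells (adjusted p = 1.7e-06). Of 14 measured genes of a network described around Plagl1, 10 rose and 1 fell with Pou5f1 RNAi, against 20.6% and 19.5% of all genes. With Nanog RNAi 7 rose and 0 fell, against 12.1% and 8.77%. The list includes Plagl1 itself and Dlk1, Meg3, Mest, Ndn, Peg3, Sgce, Gnas and Gatm of this set, so its counts partly repeat theirs. Any link of these changes to Plagl1 was not tested.

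The Prader-Willi and Angelman cluster on chromosome 7 was divided. Ndn, which encodes necdin, a growth suppressor of the MAGE family, had levels of 8.34, 8.56, 8.62 and 8.72 in Pou5f1 RNAi cells, 7.99, 7.93, 7.78, 7.83 and 8.21 in Nanog RNAi cells and 6.84, 7.26, 7.23, 7.09 and 7.34 in vector cells. The 3 groups did not overlap. Ndn rose by 1.41 ± 0.11 (adjusted p = 1.3e-09) and 0.80 ± 0.10 (adjusted p = 9.7e-06), or 0.91 and 0.52 averaged over its 8 probe sets. Magel2, a relative of Ndn, rose with Nanog RNAi alone, by 0.39 ± 0.084 (adjusted p = 0.0026), and lay 0.56 lower in Pou5f1 RNAi than in Nanog RNAi cells (adjusted p = 4.2e-05). Snrpn, a splicing protein gene, fell by 0.40 ± 0.11 with Pou5f1 RNAi (adjusted p = 0.0092), where its arrays (5.42 to 5.62) overlapped those of vector cells (5.56 to 6.18). Another 6 probe sets that are annotated to both Snrpn and Snurf were not used. Atp10a, a phospholipid transporter, fell by 0.79 ± 0.12 with Pou5f1 RNAi, or by 0.39 averaged over its 4 probe sets. Mkrn3, Peg12 and the ubiquitin ligase Ube3a were called in neither knockdown, although 2 of the 6 Ube3a probe sets rose with Pou5f1 RNAi and 1 with Nanog RNAi.

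The Dlk1-Dio3 cluster on chromosome 12 holds paternally expressed Dlk1, a Notch-like ligand, and a run of maternally expressed noncoding RNAs, of which Meg3 was measured along with Rian, host of small nucleolar RNAs, and Mirg, host of microRNAs. All 3 noncoding RNAs fell with Pou5f1 RNAi, and none was called with Nanog RNAi in the fit without a block. Meg3 had levels of 8.42, 8.34, 8.12 and 8.29 in Pou5f1 RNAi cells, 9.82, 9.81, 9.69, 9.92 and 9.86 in Nanog RNAi cells and 9.77, 9.79, 9.89, 9.90 and 9.91 in vector cells. Rian had levels of 7.79, 7.65, 7.90 and 7.90 in Pou5f1 RNAi cells, 8.88, 8.84, 8.83, 9.75 and 9.47 in Nanog RNAi cells and 8.86, 8.94, 9.06, 9.48 and 9.55 in vector cells. Mirg had levels of 6.18, 6.08, 5.67 and 5.99 in Pou5f1 RNAi cells, 7.69, 7.95, 7.69, 7.84 and 8.13 in Nanog RNAi cells and 7.69, 7.69, 7.57, 7.45 and 7.61 in vector cells. For each of the 3, every Pou5f1 RNAi array lay below every other array, and the Nanog RNAi and vector arrays overlapped. Meg3 fell by 1.56 ± 0.077 (adjusted p = 1.3e-12), Rian fell by 1.37 ± 0.18 (adjusted p = 2.1e-06) and Mirg fell by 1.62 ± 0.11 (adjusted p = 1.1e-10). Of the probe sets, 10 of 11 for Meg3, 4 of 4 for Rian and 2 of 2 for Mirg fell. With Nanog RNAi, Meg3 and Rian differed by -0.03 each, with adjusted p of 0.86 and 0.95, and Mirg differed by 0.26. That Mirg difference was called when the replicate number was included as a block. Dlk1 had levels of 5.13, 4.94, 5.20 and 5.09 in Pou5f1 RNAi cells, 5.52, 5.30, 5.85, 5.63 and 5.73 in Nanog RNAi cells and 5.04, 5.37, 5.49, 5.10 and 5.28 in vector cells. Its Nanog RNAi and vector arrays overlapped. Dlk1 rose by 0.35 with Nanog RNAi (adjusted p = 0.023), a call that was lost without vector replicate 1 or 4 or Nanog RNAi replicate 3 or 5 (adjusted p up to 0.073).

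Copg2 moved in opposite directions in the 2 knockdowns. It encodes a coatomer subunit and overlaps Mest, which encodes a hydrolase-like protein of mesoderm, tail to tail. Copg2 had levels of 7.64, 7.75, 7.79 and 7.77 in Pou5f1 RNAi cells, 6.54, 6.50, 6.58, 6.89 and 6.75 in Nanog RNAi cells and 7.02, 7.10, 7.22, 7.31 and 7.43 in vector cells. The groups were separate, Copg2 rising by 0.52 ± 0.095 with Pou5f1 RNAi (adjusted p = 0.00015) while with Nanog RNAi it fell by 0.56 ± 0.090 (adjusted p = 0.00012). The direct comparison gave 1.09 ± 0.095 for Pou5f1 RNAi over Nanog RNAi cells (adjusted p = 1.1e-08). Mest had levels of 10.16, 10.18, 10.20 and 10.24 in Pou5f1 RNAi cells, 9.92, 9.86, 9.83, 10.06 and 10.001 in Nanog RNAi cells and 9.66, 9.80, 9.82, 9.94 and 9.89 in vector cells. Only the Pou5f1 RNAi arrays of Mest were separate from vector arrays, with a rise of 0.38 ± 0.076 (adjusted p = 0.00047). Each of these genes has 1 probe set.

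Nnat, a small membrane protein gene that lies in an intron of Blcap, had levels of 7.93, 7.81, 8.11 and 7.88 in Pou5f1 RNAi cells, 6.99, 6.86, 6.87, 6.70 and 7.38 in Nanog RNAi cells and 6.72, 6.88, 6.59, 6.43 and 6.69 in vector cells. Only the Pou5f1 RNAi arrays stood apart. Nnat rose by 1.27 ± 0.12 (adjusted p = 1.7e-08) and its host Blcap by 0.82 ± 0.099 (adjusted p = 9.6e-07) with Pou5f1 RNAi. Neither was called with Nanog RNAi in the fit without a block, while Nnat was called there with the replicate number as a block. H13, a signal peptide peptidase gene, and the retrogene Mcts2 in its intron went opposite ways. H13 had levels of 7.80, 7.77, 8.07 and 8.04 in Pou5f1 RNAi cells, 7.46, 7.44, 7.48, 7.31 and 7.70 in Nanog RNAi cells and 6.91, 6.85, 7.02, 6.98 and 7.08 in vector cells. The groups of H13 were separate, with rises of 0.95 ± 0.090 (adjusted p = 2.9e-08) and 0.51 ± 0.085 (adjusted p = 0.0002), but only 1 of its 6 probe sets was called and the mean of the 6 gave 0.16 and 0.14. Between the knockdowns H13 was 0.44 higher with Pou5f1 RNAi by that probe set and 0.01 by the mean (adjusted p = 0.9). Mcts2 fell by 0.34 with Pou5f1 RNAi (adjusted p = 0.00096) and by 0.22 with Nanog RNAi (adjusted p = 0.037). The second Mcts2 call was lost in 7 fits without 1 array and after subtracting array medians (adjusted p up to 0.098). Mcts2 is a close copy of Mcts1, so its probe set may read both.

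Commd1, a copper and ubiquitin regulator whose intron holds Zrsr1, had levels of 8.33, 8.21, 8.44 and 8.35 in Pou5f1 RNAi cells, 8.96, 9.03, 8.97, 8.99 and 9.02 in Nanog RNAi cells and 9.66, 9.58, 9.62, 9.46 and 9.63 in vector cells. It was lowest in Pou5f1 RNAi cells and highest in vector cells without overlap, with differences of -1.26 ± 0.071 (adjusted p = 1e-11) and -0.59 ± 0.067 (adjusted p = 1.8e-06). Both Commd1 probe sets fell each time. Zdbf2 fell by 0.79 ± 0.084 with Pou5f1 RNAi and by 0.41 ± 0.079 with Nanog RNAi. Gnas, which encodes the stimulatory G protein alpha subunit along with other imprinted transcripts, rose by 0.85 ± 0.095 with Pou5f1 RNAi by its brightest probe set, but only 1 of 5 was called and their mean gave 0.18 (adjusted p = 0.064). Gatm, which makes the precursor of creatine, and Osbpl5, an oxysterol-binding protein gene, rose with Pou5f1 RNAi by 0.57 and 0.51. Of the 6 genes measured in the Kcnq1 cluster, Osbpl5 was the one called with Pou5f1 RNAi and the tetraspanin Cd81 the one called with Nanog RNAi, which rose by 0.31 (adjusted p = 0.014). The channel Kcnq1, Nap1l4, Slc22a18 and Ins2 were called in neither knockdown, nor were Rasgrf1, Trappc9 and Inpp5f. With Pou5f1 RNAi 1 of 2 Slc22a18 probe sets rose and 1 of 3 for Trappc9 fell.

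Set directly against Nanog RNAi cells, Pou5f1 RNAi cells showed higher levels of 14 and lower levels of 12 imprinted genes of 42, against 18.8% of all genes higher and 18.6% lower. Among paternal genes 8 were higher and 6 lower, and among maternal genes 4 were higher and 6 lower. The largest differences were in Peg10 (2.74), Sfmbt2 (2.63), Sgce (1.90) and Peg3 (1.43) on the higher side and in Mirg (-1.88), Meg3 (-1.53) and Rian (-1.34) on the lower side. All 4 measured genes of the Dlk1-Dio3 cluster were lower in Pou5f1 RNAi cells, Dlk1 among them by -0.52 (adjusted p = 0.00081), or -0.29 averaged over its 2 probe sets. Airn was 1.06 higher. The call for Snrpn (-0.31, adjusted p = 0.048) was lost in 9 of 19 alternative fits, 8 of them leaving out 1 array.

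**Figure D3:**
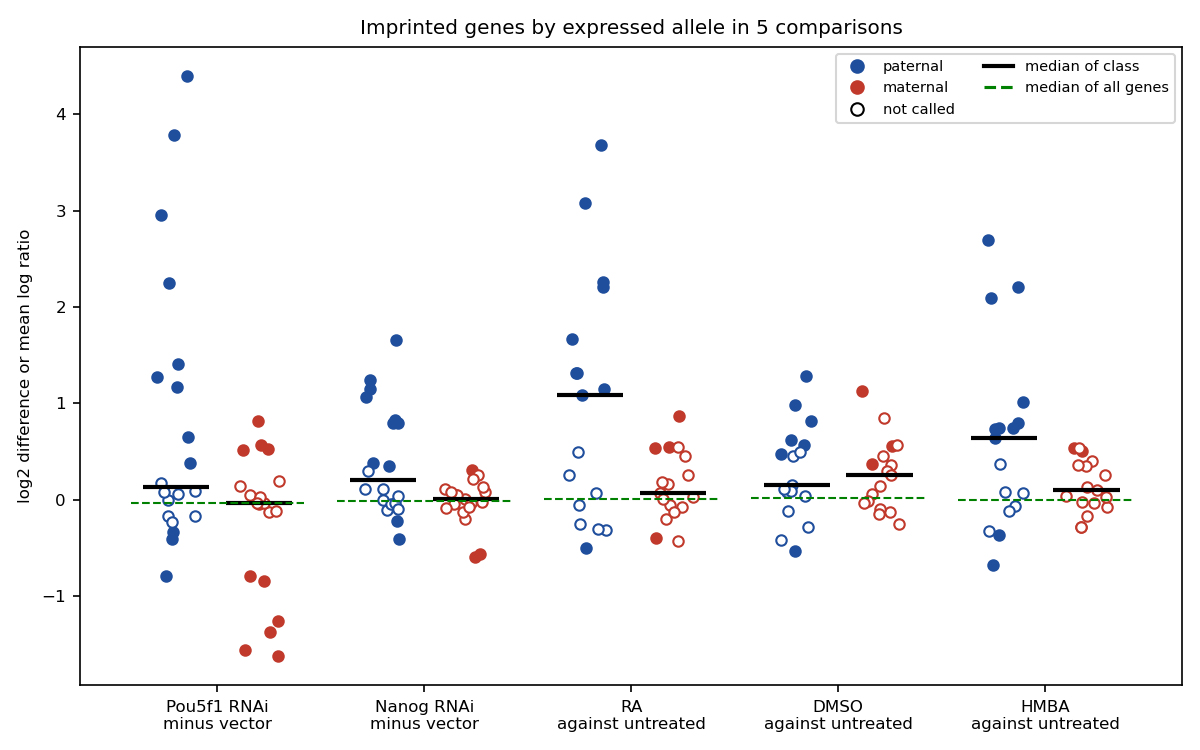
Differences of paternal and maternal imprinted genes from vector cells (log2 level) or untreated cells (mean log ratio over 3 days) in 5 comparisons. Each point is a gene, filled where called, black lines are class medians and green dashes the median of all genes. With RA the paternal median is 1.09 and the maternal median 0.06.

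Retinoic acid, a ligand of nuclear receptors, changed 16 of the 36 imprinted genes tested, of which 14 rose and 2 fell, against 17% and 10.5% of all genes. DMSO changed 11, with 10 rises and 1 fall, against 10.7% and 8.6%, and HMBA changed 16, with 13 rises and 3 falls, against 15.5% and 12.8%. Of the 17 paternal genes 9 rose and 1 fell with RA, 6 rose and 1 fell with DMSO, and 9 rose and 2 fell with HMBA. Of the 17 maternal genes 3 rose and 1 fell with RA, 3 rose and 0 fell with DMSO, and 2 rose and 1 fell with HMBA. The median log ratio of paternal genes was 1.09 with RA, 0.15 with DMSO and 0.64 with HMBA, and that of maternal genes was 0.06, 0.26 and 0.10 in the same order, with all genes between 0.00 and 0.02. Arrays of the same dye orientation deviated together, so a fit with a dye term is given as well. With the dye term 18 genes rose and 7 fell with RA, against 29.8% and 22.7% of all genes in that fit. With DMSO 18 rose and 5 fell, against 24.9% and 20.1%, and with HMBA 18 rose and 6 fell, against 27.4% and 25.5%. By class, that fit had 11 paternal and 5 maternal genes rising with RA, 8 of each with DMSO, and 10 paternal and 6 maternal with HMBA. In it 4 paternal and 3 maternal genes fell with RA, 3 and 2 with DMSO, and 3 of each with HMBA. In the fit without the dye term, the 7 genes that rose with all 3 inducers were Gatm, Gnas, Ndn, Nnat, Peg12, Peg3 and Sgce. None fell with all 3 in that fit. With the dye term Peg10, Blcap, Mkrn3, Nap1l4 and H13 also rose with all 3, and Rasgrf1 fell with all 3. The share of all genes that rose or fell with all 3 inducers is not given here. The imprinted genes called with all 3 therefore cannot be set against it.

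Markers of other cell types moved in the same arrays. All 12 pluripotency markers fell with HMBA and 11 with RA and with DMSO. Of 10 primitive endoderm markers 7 rose and 1 fell with RA, 3 rose and 1 fell with DMSO and 4 rose and 1 fell with HMBA, and of 9 mesenchyme and fibroblast markers 6 rose with RA, 3 rose and 1 fell with DMSO and 4 rose with HMBA. Of 10 trophectoderm markers 5 rose with RA, 2 rose and 1 fell with DMSO and 4 rose and 1 fell with HMBA. Neural markers, 9 in number, gave 2 rises and 3 falls with RA, 1 and 2 with DMSO and 2 and 2 with HMBA. On the 6 RA arrays the mean log ratio of primitive endoderm markers ran between 0.53 and 2.35 and that of mesenchyme markers between 1.21 and 2.63. Over all genes 17% rose and 10.5% fell with RA, 10.7% and 8.6% with DMSO, and 15.5% and 12.8% with HMBA. The part of these markers in the imprinted genes' values was not tested.

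Peg3 rose with every inducer. Its log ratios with RA were 1.52 and 2.29 on day 2, 4.02 and 3.89 on day 4 and 3.29 and 3.45 on day 6. With DMSO they were 0.22 and 0.39, then 1.02 and 1.25, then 2.48 and 2.35, and with HMBA 0.99 and 0.44, then 2.92 and 2.25, then 3.27 and 2.71. All 18 arrays were above 0, and the DMSO arrays were separate from one day to the next. The means were 3.08 ± 0.13 with RA (SE, n = 6 arrays, adjusted p = 8.2e-09), 1.28 ± 0.13 with DMSO (adjusted p = 2.2e-05) and 2.10 ± 0.13 with HMBA (adjusted p = 2.3e-07). Usp29, from the shared start region, was called with no inducer (mean 0.26 with RA, adjusted p = 0.0051 with the dye term). Zim1 rose with RA by 0.53 (adjusted p = 0.03), a call lost with arrays scaled to equal spread and without RA day 2 replicate 2, day 4 replicate 1 or either day 6 array (adjusted p up to 0.15). With HMBA Zim1 rose only in the fit with the dye term (0.36).

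Mest gave the largest rise of any imprinted gene tested here with RA and separated the inducers most. Its log ratios with RA were 3.54 and 3.62 on day 2, 4.62 and 3.91 on day 4 and 3.42 and 2.98 on day 6. With DMSO they were 0.99 and 0.28, then 0.21 and -0.90, then 0.25 and 0.06, and with HMBA 0.87 and -0.02, then 1.21 and 0.53, then 2.19 and 1.31. The 6 RA arrays lay above all 12 others. Mest rose by 3.68 ± 0.19 with RA (adjusted p = 3.9e-08) and by 1.01 ± 0.19 with HMBA (adjusted p = 0.0014), and averaged 0.15 with DMSO, which was not called. Copg2, its overlapping neighbour, was called with DMSO only when the dye term was included (0.36, adjusted p = 0.013), and its ratios followed the dye, running from -0.93 to 0.28 on arrays with the treated sample in Cy3 and from 0.31 to 1.18 on those with it in Cy5.

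Peg10 and Sgce again rose. The log ratios of Peg10 with RA were 0.97 and 2.37 on day 2, 2.42 and 2.68 on day 4 and 1.94 and 3.16 on day 6. With DMSO they were -0.08 and 0.48, then 0.21 and 0.87, then 0.56 and 0.92, and with HMBA 1.21 and 1.56, then 3.06 and 3.94, then 2.90 and 3.48. RA and HMBA arrays of Peg10 were all above every DMSO array. Peg10 rose by 2.26 ± 0.21 with RA (adjusted p = 5.7e-06) and 2.69 ± 0.21 with HMBA (adjusted p = 1.3e-06), and its mean of 0.49 with DMSO was called only with the dye term (adjusted p = 0.00057). Sgce had log ratios of 1.28 and 1.12 on day 2, 1.36 and 1.29 on day 4 and 1.47 and 1.35 on day 6 with RA. With DMSO they were 0.34 and 0.12, then 0.83 and 0.40, then 1.23 and 0.80, and with HMBA 0.71 and 0.35, then 1.09 and 0.62, then 1.20 and 0.85. All 18 arrays of Sgce were above 0, with means of 1.31 ± 0.10 with RA, 0.62 ± 0.10 with DMSO and 0.80 ± 0.10 with HMBA. Asb4 rose with RA by 0.54 (adjusted p = 0.033), on 4 arrays only, of which 3 were above 0, and the call was lost with arrays scaled to equal spread and without RA day 2 replicate 1 or any of the 4 DMSO arrays of days 2 and 6 (adjusted p up to 0.063). With the dye term Ppp1r9a fell with RA as well (-0.20, adjusted p = 0.04). It fell by 0.29 with HMBA (adjusted p = 0.029), a call lost without any 1 of the HMBA arrays except day 4 replicate 1 (adjusted p up to 0.14).

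Nnat rose with all inducers. Its log ratios with RA were 1.50 and 1.10 on day 2, 2.08 and 2.16 on day 4 and 1.59 on both arrays of day 6. With DMSO they were 0.50 and 0.38, then 0.97 and 1.27, then 1.41 and 1.37, and with HMBA 1.24 and 1.23, then 2.98 and 3.12, then 2.11 and 2.55. The means were 1.67 ± 0.088 with RA (adjusted p = 5.2e-08), 0.98 ± 0.088 with DMSO (adjusted p = 8.1e-06) and 2.21 ± 0.088 with HMBA (adjusted p = 6.4e-09). Blcap was called with no inducer without the dye term and with all 3 when it was included (0.55, 0.45 and 0.54). Plagl1 had log ratios of 0.72 and 0.74 on day 2, 1.29 and 0.94 on day 4 and 1.52 and 1.34 on day 6 with RA, and between -0.20 and 0.40 on the DMSO arrays. With HMBA the Plagl1 ratios were 0.40 and 0.18, then 0.87 and 0.97, then 1.14 and 0.91. Plagl1 rose by 1.09 ± 0.084 with RA (adjusted p = 1.4e-06) and 0.75 ± 0.084 with HMBA (adjusted p = 3.2e-05). It averaged 0.09 with DMSO and was not called there. Of the 14 measured genes of its network, 12 rose and 1 fell with RA, against 17% and 10.5% of all genes. With HMBA 12 rose (15.5% of all genes), and with DMSO 5 rose and 1 fell (10.7% and 8.6%). These counts include Plagl1 and other genes described here, and any link to Plagl1 was not tested.

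Dlk1 rose with RA and HMBA. Its log ratios with RA were 1.11 and 1.05 on day 2, 2.75 and 2.56 on day 4 and 2.91 and 2.86 on day 6, and with HMBA 0.40 and -0.02, then 0.64 and 0.25, then 1.59 and 1.54. On the 5 DMSO arrays with a value Dlk1 ran from -0.23 to 0.33. Every RA array of Dlk1 lay above every DMSO array. The means were 2.21 ± 0.098 with RA (adjusted p = 3.7e-08) and 0.73 ± 0.098 with HMBA (adjusted p = 0.00019). The noncoding RNAs of its cluster did not follow it. Rian rose with DMSO, with log ratios of 1.29 and 1.60 on day 2, 1.37 and 1.53 on day 4 and 0.51 and 0.46 on day 6, and with HMBA it had 1.04 and 1.31, then 0.58 and 0.45, then -0.12 and -0.22. With RA the Rian ratios lay between -0.43 and 0.08. Rian rose by 1.13 ± 0.086 with DMSO (adjusted p = 2.3e-06) and by 0.51 ± 0.086 with HMBA (adjusted p = 0.00073), where 4 of 6 arrays were above 0. Mirg had log ratios of -0.29 and 0.15 on day 2, -1.13 and -0.40 on day 4 and -0.58 and -0.31 on day 6 with RA, and of 1.16 and 1.50, then -0.26 and 1.17, then -0.40 and 0.24 with DMSO. Mirg was called with no inducer without the dye term, at means of -0.43 with RA, 0.57 with DMSO and -0.28 with HMBA, and all 3 were called with it (adjusted p = 0.00083, 7.1e-05 and 0.018). Meg3 ratios were higher on the array with the treated sample in Cy5 for every treatment and day, and ran from -0.81 to 1.40 with RA, from -0.40 to 1.87 with DMSO and from -1.04 to 1.52 with HMBA. Meg3 with DMSO (0.85) was called only with the dye term (adjusted p = 1.9e-05).

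**Figure D4:**
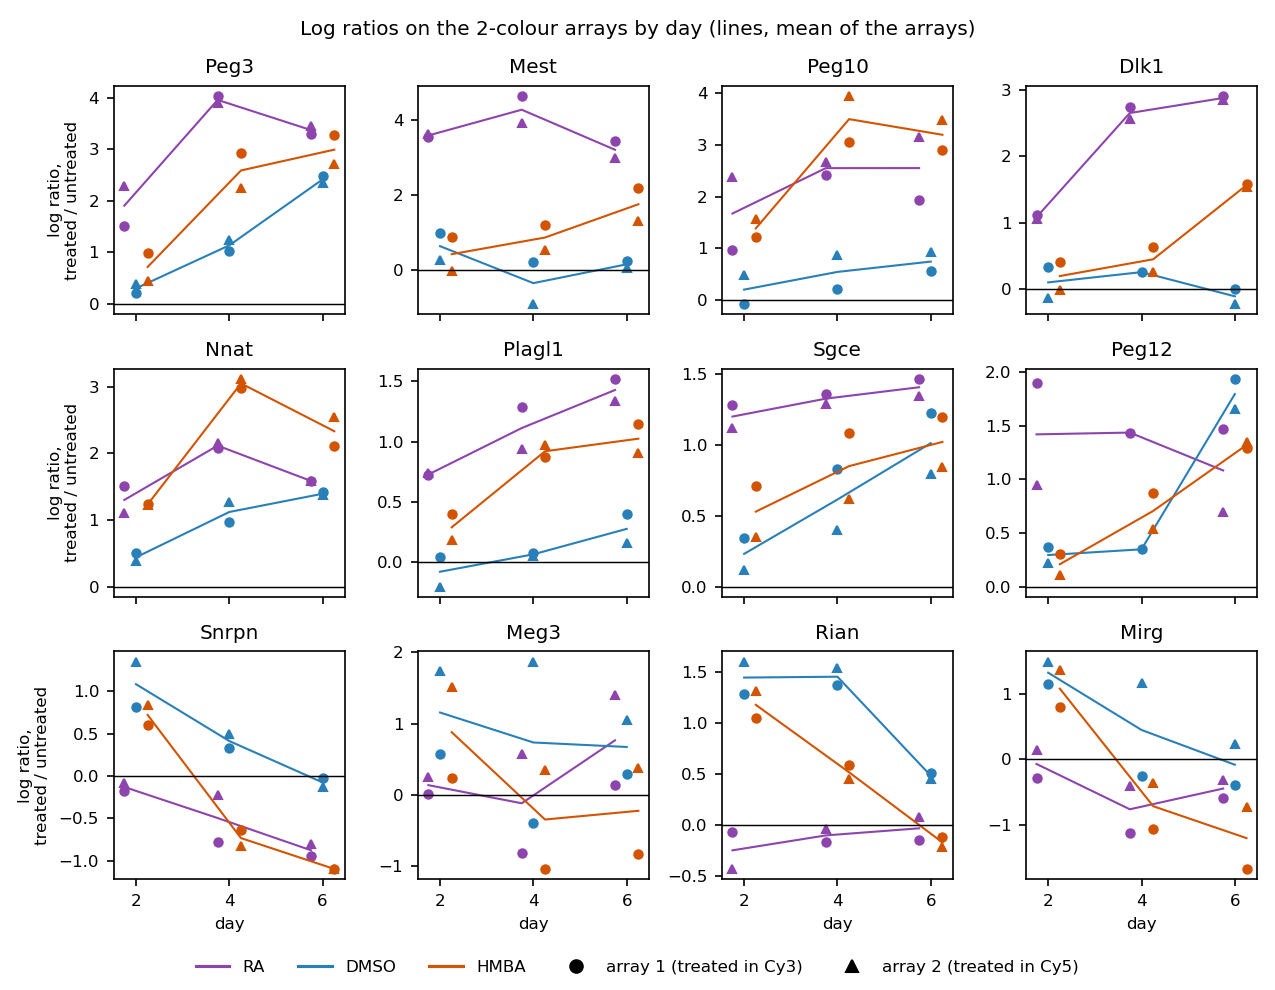
Log ratios of treated to untreated cells for 12 imprinted genes on days 2, 4 and 6 with RA, DMSO and HMBA, each gene on its own axis. Circles and triangles are arrays of opposite dye orientation, and lines join their means. Peg3 lies above 0 on all 18 arrays, while Snrpn, Rian and Mirg with HMBA lie above 0 on day 2 and below it on day 6.

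The chromosome 7 genes again differed among themselves. Ndn had log ratios of 1.30 and 0.63 on day 2, 1.28 and 1.19 on day 4 and 1.41 and 1.05 on day 6 with RA, between 0.35 and 0.85 with DMSO and between 0.48 and 0.82 with HMBA. Ndn rose by 1.14 ± 0.099, 0.57 ± 0.099 and 0.64 ± 0.099 in that order. Peg12, of the Frat family of Wnt pathway proteins, had 1.90 and 0.94 on day 2, 1.44 on day 4 and 1.47 and 0.70 on day 6 with RA. With DMSO it had 0.37 and 0.22, then 0.35, then 1.94 and 1.65, and with HMBA 0.31 and 0.11, then 0.87 and 0.54, then 1.30 and 1.35. Day 6 held its highest DMSO and HMBA values, but Peg12 was called between day 6 and day 2 with those inducers only with the dye term. Peg12 rose by 1.31 ± 0.16, 0.81 ± 0.16 and 0.74 ± 0.14, with 1 day 4 array lacking a value for RA and for DMSO. Snrpn went both ways. It fell by 0.50 ± 0.097 with RA (adjusted p = 0.0021), rose by 0.47 ± 0.097 with DMSO (adjusted p = 0.0046) and fell by 0.37 ± 0.097 with HMBA (adjusted p = 0.014), the DMSO value being 0.30 when its probes were averaged and the HMBA call being lost without HMBA day 2 replicate 1 or day 4 replicate 2 (adjusted p up to 0.07). Atp10a fell by 0.39 with RA and rose by 0.37 with DMSO, with all 6 arrays below 0 and all 6 above 0. Ube3a was called with no inducer, and Mkrn3 rose with RA, DMSO and HMBA only with the dye term (0.50, 0.45 and 0.37).

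Of the other genes, H13 had log ratios between 0.34 and 1.55 with RA, between 0.08 and 1.62 with DMSO and between 0.42 and 1.65 with HMBA, and its 3 higher values in each treatment came from 1 dye orientation. H13 rose by 0.91 ± 0.26 with RA (adjusted p = 0.022) and 1.01 ± 0.26 with HMBA (adjusted p = 0.012), calls lost without any 1 of the 3 arrays with the treated sample in Cy5 (adjusted p up to 0.11 and 0.079), and with the dye term H13 rose with all 3 inducers. Gnas rose by 0.58, 0.38 and 0.52 and Gatm by 0.87, 0.56 and 0.54 with RA, DMSO and HMBA. Averaged over its probes Gnas gave 1.13, 0.90 and 1.03. The Gatm call with DMSO was lost without DMSO day 2 or day 6 replicate 2 or any 1 of the HMBA arrays of days 2 and 4 (adjusted p up to 0.12), and that with HMBA without any 1 of those 4 HMBA arrays (adjusted p up to 0.079). The exchange factor gene Rasgrf1 fell by 0.53 with DMSO (adjusted p = 0.014, 0.055 without day 6 replicate 2) and by 0.67 with HMBA (adjusted p = 0.00083). In the Kcnq1 cluster 0 of 5 tested genes were called with any inducer in the fit without the dye term, where 0 also had an unadjusted p under 0.05. With the dye term Nap1l4 rose with all 3 (0.45, 0.29 and 0.40), Cd81 fell with DMSO (-0.25) and Slc22a18 fell with DMSO (-0.15) and HMBA (-0.17). In that fit Mcts2 also fell with DMSO (-0.41) and HMBA (-0.32), Trappc9 rose with HMBA (0.35), Impact fell with RA (-0.31) and DMSO (-0.29), and Rasgrf1 (-0.30) and Zdbf2 (-0.26) fell with RA.

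Inducers were also set against each other over the 3 days. Between RA and DMSO 8 imprinted genes were higher with RA and 3 lower, against 4.29% and 2.19% of all genes. The differences were largest for Mest (3.53 ± 0.26), Dlk1 (2.13 ± 0.15), Peg3 (1.79 ± 0.18) and Peg10 (1.76 ± 0.29) above 0 and for Rian (-1.25 ± 0.12), Snrpn (-0.97 ± 0.14) and Atp10a (-0.77 ± 0.11) below it. All 8 that were higher with RA in the fit without the dye term are paternal, while with it 9 paternal and 2 maternal genes were higher, the maternal ones being Asb4 (0.48) and Cd81 (0.41). Among them the Ndn call (0.58) was lost in 7 alternative fits and the Sgce call (0.69) in 2, scaling to equal spread and leaving out DMSO day 6 replicate 2. Between RA and HMBA 3 were higher with RA and 3 lower, against 2.29% and 0.856%, led by Mest (2.67 ± 0.26) and Dlk1 (1.47 ± 0.14), with Rian (-0.63), Nnat (-0.54) and Atp10a (-0.53) lower. Peg3 was 0.98 higher with RA than with HMBA, a call lost with arrays scaled to equal spread and with the mean of its probes (adjusted p up to 0.14). The Nnat call was lost in 13 of 23 alternative fits (adjusted p up to 0.12) and that for Atp10a in 5 (adjusted p up to 0.074). Between DMSO and HMBA 2 were higher with DMSO and 4 lower, against 0.557% and 1.2%, with Snrpn (0.84) and Rian (0.62) higher and Peg10 (-2.20), Nnat (-1.22), Peg3 (-0.81) and Plagl1 (-0.66) lower. The Peg3 call there was lost in 18 of 23 alternative fits, that for Rian in 10 and that for Plagl1 in 5. With the dye term 11 genes were higher with RA than with DMSO and 6 lower, against 14.3% and 9.32% of all genes, 8 were higher with RA than with HMBA and 4 lower, against 10.6% and 6.36%, and 4 were higher with DMSO than with HMBA and 6 lower, against 4.83% and 6.54%. RA, DMSO and HMBA were each used at 1 dose, so these comparisons hold for those doses.

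Between day 6 and day 2, few imprinted genes were called. With RA 2 were higher on day 6 and 0 lower, against 0.881% and 0.457% of all genes, Dlk1 by 1.80 ± 0.24 (adjusted p = 0.0041) and Peg3 by 1.47 ± 0.32 (adjusted p = 0.049). With DMSO Peg3 was higher by 2.11 ± 0.32 (adjusted p = 0.0071) and Snrpn lower by -1.16 ± 0.24 (adjusted p = 0.041), 1 each way, against 0.582% and 0.548%. With HMBA 3 were higher, Peg3 by 2.27 ± 0.32 (adjusted p = 0.0027), Dlk1 by 1.37 ± 0.24 (adjusted p = 0.017) and Nnat by 1.10 ± 0.21 (adjusted p = 0.024), against 0.814%. Another 3 were lower with HMBA, Mirg by -2.29 ± 0.48 (adjusted p = 0.037), Snrpn by -1.82 ± 0.24 (adjusted p = 0.0018) and Rian by -1.34 ± 0.21 (adjusted p = 0.0063), against 0.931%. These comparisons set 2 arrays against 2 and rest on spread shared with the other groups. The Peg3 call with RA was lost in 22 of 23 alternative fits, the Snrpn call with DMSO in 14 and the Mirg call with HMBA in 10. The Dlk1 call with RA was lost with arrays scaled to equal spread (adjusted p = 0.055). The Peg3 call with DMSO was lost without any 1 of its 4 arrays of days 2 and 6, and calls with HMBA were lost in 4 alternative fits for Nnat, 3 for Dlk1 and 2 for Rian. With the dye term 6 were higher and 1 lower with RA, against 7.4% and 4.77% of all genes. That fit gave 5 and 5 with DMSO, against 6.01% and 4.84%, and 8 and 5 with HMBA, against 5.14% and 6.16%. Mirg with HMBA had log ratios of 0.80 and 1.37 on day 2, -1.07 and -0.36 on day 4 and -1.68 and -0.73 on day 6. Snrpn with HMBA had 0.61 and 0.83, then -0.64 and -0.83, then -1.10 on both arrays, so both genes were above untreated cells on day 2 and below them later.

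Set side by side, 10 of the 12 genes that rose with Pou5f1 RNAi among the 36 on both platforms (83.3%) also rose with RA, where they made up 71.4% of the 14 that rose. Of all 11037 genes on both platforms, 41% of those that rose with Pou5f1 RNAi also rose with RA, where they made up 57.4% of the risers. With HMBA 10 of the 12 imprinted genes rose as well (41.1% for all genes) and with DMSO 6 of the 12 (23.4% for all genes). Of 9 that rose with Nanog RNAi 7 rose with RA (77.8%, against 34.4% for all genes), where they made up 50% of the risers (28.7% for all genes). The inducers share their untreated cells and the knockdowns their vector cells, and the platforms differ in probes and scale. As a share of the genes that fell with a knockdown, shared falls were near or below the share over all genes. Of the 8 that fell with Pou5f1 RNAi, Snrpn and Atp10a also fell with RA (25%, against 24.8% for all genes). With HMBA 2 of the 8 fell as well (25%, against 32.6%) and with DMSO 0 (against 20.5%). Of the 3 that fell with Nanog RNAi, 0 fell with RA, DMSO or HMBA (21.7%, 18.1% and 26.6% for all genes). Counted over the few that fell with an inducer, 2 of 2 with RA also fell with Pou5f1 RNAi (against 55.1% for all genes). With HMBA 2 of 3 did (66.7%, against 60.1%), and with DMSO 0 of 1 (against 55.7%). No imprinted gene was called in opposite directions by Pou5f1 RNAi and RA, and 1 was by Pou5f1 RNAi and HMBA (Rian). Another comparison, of Pou5f1 RNAi and DMSO, had 3 (Rian, Snrpn and Atp10a), to which the dye term added Meg3 and Mirg. The share of all genes called in opposite directions is not given here, so these counts cannot be set against it. Dlk1 and Mest, the genes set apart most by RA, differed by -0.16 and 0.38 with Pou5f1 RNAi.

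Genes that write, read or protect imprints were compared with these members from a list of 24, of which all were on the RNAi arrays and 19 on the 2-colour arrays. With Pou5f1 RNAi 17 fell and 3 rose, against 19.5% and 20.6% of all genes. The list shares Zfp42 with the pluripotency markers. Genes that fell include the imprint-protecting zinc finger gene Zfp57 (-1.19 ± 0.16), Dppa3 (-2.01), which shields methylation in the early embryo, and the methyltransferase Dnmt3a (-2.48). Its cofactor Dnmt3l (-1.76) and the demethylation enzyme Tet1 (-2.22) fell as well. The maintenance methyltransferase Dnmt1 rose by 0.60. With Nanog RNAi 4 fell and 2 rose, against 8.77% and 12.1% of all genes. Dppa3 rose by 0.91, Tet1 fell by 0.67 and Zfp57 differed by -0.01. Of 19 on the 2-colour arrays 8 fell with RA, 6 with DMSO and 7 with HMBA, against 10.5%, 8.6% and 12.8% of all genes. None rose, and Zfp57 fell each time (-0.87, -1.90 and -1.81). The mean level of the list lay between 8.40 and 8.48 on Pou5f1 RNAi arrays, between 9.02 and 9.17 on Nanog RNAi arrays and between 9.09 and 9.24 on vector arrays. A further list of imprinted genes holds growth regulators such as Igf2 and Cdkn1c and also other genes, such as Ddc, Pon2 and Casd1. Of its 15 measured genes 8 rose and 1 fell with Pou5f1 RNAi and the same numbers with Nanog RNAi. Over all genes 20.6% rose and 19.5% fell with Pou5f1 RNAi, and 12.1% and 8.77% with Nanog RNAi. On the 2-colour arrays 6 of 12 rose and 2 fell with RA (17% and 10.5% of all genes). With DMSO 1 rose and 3 fell (10.7% and 8.6%), and with HMBA 6 rose (15.5%). No relation between these lists and the imprinted genes was tested.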

How the data were processed

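The deposited RNAi values are RMA levels, per the submitters' processing notes, and their range is that of log2 values. The 2-colour values are, per the labels, ratios turned to sample over reference whatever the dye, and their values run to both sides of 0 as log2 or other log ratios do. Their log base was taken as 2, and each ratio array has a median of 0. How the ratios were background-corrected, and any genome build, are not given in the sources used here. Gene names came from the platform tables, and only probes with 1 symbol were used.

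Of 45101 probe sets 64 controls were set aside and 45037 tested, and of 21106 ratio probes the 16657 with a value in every group were tested. Ratio arrays held 11257 to 20019 values. All 14 RNAi arrays and all 18 ratio arrays went into 1 linear model each (limma 3.58.1, R 4.3.3) with no block, and a probe was called where its p, adjusted by Benjamini and Hochberg's method, was under 0.05. The fits were tested on simulated data with independent noise on each array and no dye effect. That test cannot speak for deviations shared by arrays of the same dye orientation. A gene was measured by its single-symbol probe set of highest mean (RNAi) or by the probe with most values (ratios). Every measured member is described, with values on each array where it was called with a difference of at least 1 in a knockdown or inducer comparison. Members, lists, allele classes and clusters were chosen with earlier results of these data known, so no test was made over lists. Labels do not say that arrays hold separate cultures, and p-values measure the spread between arrays, whose number limits the precision. Same-numbered RNAi arrays deviated together at r over 0.1 in 5 of 13 pairs (range -0.25 to 0.44), so the numbers were not taken to pair them. Every same-numbered pair of Nanog RNAi and vector arrays was positive, though (r = 0.09 to 0.44). Calls added by the replicate number as a block are given further on. Ratio arrays of the same dye orientation deviated together at r over 0.1 in 36 of 36 pairs (r = 0.45 to 0.88). Counts and calls against untreated cells are therefore given with the dye term too. Alternatives were the replicate block, robust estimation (with an intensity trend for RNAi arrays), centring or scaling of arrays, a filter on dim or incomplete probes, the mean of all probes and leaving out each array. Figures were drawn with matplotlib in Python. Promoter windows came from a RefSeq table and were not read from the arrays' build.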

Additional observations from a re-analysis of the deposited data

Results flagged for a closer look

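Among the 42 imprinted genes in 126 groups of 4 or 5 RNAi arrays, 4 arrays stood far from the rest of their group, which is 3.17% of the groups, while chance marks about 1 in 20. Airn in Pou5f1 RNAi replicate 3 had a level of 5.62, with the other 3 arrays between 5.14 and 5.22, a gap of 0.849 of the group's range. Ube3a in Nanog RNAi replicate 4 had 9.92 with the others between 10.20 and 10.31 (0.733 of the range), and Ins2 in Nanog RNAi replicate 5 had 6.09 with the others between 6.37 and 6.45 (0.778). Mcts2 in vector replicate 5 had 9.51 with the others between 9.33 and 9.38 (0.732).

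The effect of an inducer differed between day 6 and day 2 in 10 tests. Peg3 was higher on day 6 with RA (1.47), DMSO (2.11) and HMBA (2.27), Dlk1 with RA (1.80) and HMBA (1.37) and Nnat with HMBA (1.10). Snrpn was lower on day 6 with DMSO (-1.16) and HMBA (-1.82), and Rian (-1.34) and Mirg (-2.29) were lower with HMBA. Only the Peg3 and Snrpn calls with HMBA held in every alternative fit. The Peg3 call with RA was lost in 22 of 23, the Snrpn call with DMSO in 14 and the Mirg call with HMBA in 10.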

How the results depend on the processing

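Counts of called imprinted genes on the RNAi arrays stayed within 1.5 times of those reported under every alternative run. With the replicate number as a block, 25 were called for Pou5f1 RNAi, 17 for Nanog RNAi and 27 between them. The calls added were Cd81 (0.19) with Pou5f1 RNAi, Nnat (0.30) and Mirg (0.26) with Nanog RNAi, and Trappc9 (0.24) between them. Nanog RNAi and vector arrays of a number correlated at 0.09 to 0.44. Leaving out each array gave 24 to 25, 13 to 16 and 25 to 27. On the ratio arrays the replicate block is the dye orientation, and with it as a term 25 genes were called with RA, 23 with DMSO, 24 with HMBA, 17 for RA against DMSO, 12 for RA against HMBA, 10 for DMSO against HMBA, and 7, 10 and 13 for day 6 against day 2 with RA, DMSO and HMBA. Leaving out each array gave 12 to 17 with RA, 9 to 11 with DMSO, 11 to 16 with HMBA, 9 to 11 for RA against DMSO, 4 to 7 for RA against HMBA and 3 to 6 for DMSO against HMBA. For day 6 against day 2 it gave 0 to 1 with RA, 0 to 5 with DMSO and 2 to 6 with HMBA. The 2 day calls with RA became 1 with robust estimation, 0 with arrays scaled to equal spread, 0 with probes on all 18 arrays and 1 with the mean of all probes, and the DMSO count became 4 with the mean of all probes. The cause was not tested. With only the members whose imprinting is not limited to some tissues or transcripts, the paternal median with DMSO was 0.45 and the maternal medians were -0.13 with Pou5f1 RNAi and -0.03 with HMBA. The maternal median with DMSO was 0.26 in both sets of members. Over all members the paternal median with DMSO (0.15) lay below it, so the order of the classes with DMSO depends on the members counted. No call changed direction under any alternative. Arrays without a value limit Dlk1, Peg12, Gatm, Asb4 and other probes that are missing from 1 or more ratio arrays.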

Other observations

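By array, the median log ratio of the paternal genes lay above that of the maternal genes on all 6 RA arrays, on 3 of 6 DMSO arrays and on 4 of 6 HMBA arrays. On day 6 of HMBA the paternal medians were 0.89 and 0.69 and the maternal medians -0.05 and -0.11, and on day 2 they were 0.41 and 0.11 for paternal and 0.24 and 0.17 for maternal genes. The paternal median was lower on the array with the treated sample in Cy5 than on its dye-swapped partner for each of the 9 treatment and day pairs.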
